A study of Mus musculus with 9 samples.

Results

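Thrombospondins, fibulins and Sparc proteins are secreted proteins of the extracellular matrix, and 8 of their genes were followed here: Thbs1, Thbs2, Thbs3, Thbs4, Fbln1, Fbln2, Sparc and Sparcl1. These are 8 of the 23319 gene symbols counted. The set was selected on measured values of 2 of its genes, the absence of Thbs1 reads from VIP libraries and of Fbln2 reads from Nkx2.1 libraries, and the other 6 were taken as their relatives. For that reason the differences of Thbs1 and Fbln2 from the groups without reads are given as a description, and no p-value of theirs is used as support. The 9 libraries were made from green fluorescent cells of mouse cortex at postnatal day 5, with 150 cells picked by hand for each, from strips with layer 2/3 of the medial prefrontal (mPFC) and anterior cingulate (ACC) areas. All mice carried the Ai47 reporter, which is switched on by Cre recombinase. VIP libraries came from the genotype VIP-Cre;Ai47 and SOM libraries from SOM-Cre;Ai47, in which Cre is driven from the genes of vasoactive intestinal peptide and somatostatin, with no treatment. The genotype of the third line was Nkx2.1-CreER;Ai47, given tamoxifen at embryonic day 17, which labels cells that use the Nkx2-1 gene at about that time, and this scheme is used to mark chandelier cells. Tamoxifen was given in this line only, so drug and line cannot be told apart. Each group had 3 libraries; the labels do not give the number or sex of the animals or whether animals were pooled.

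Thrombospondins are large glycoproteins that bind integrins, CD47 and the calcium channel subunit alpha2delta-1, the last encoded by Cacna2d1. Astrocytes are the best known source of Thbs1 and Thbs2 in the developing cortex, where these proteins promote the formation of excitatory synapses. Thbs1 can also release transforming growth factor beta from its latent form. Fibulins tie elastic fibres, fibronectin, laminins and proteoglycans together in the matrix. Sparcl1, also called hevin, links neurexins to neuroligins across the synapse, while Sparc binds collagen and can oppose the synaptic action of Sparcl1.

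Each library held between 6484488 and 12465997 reads assigned to genes, and between 8180 and 11490 genes had a read. The fewest genes were read in Nkx2.1 replicate 2, the library with the most reads. Levels are given as CPM, a gene's reads scaled to all reads in genes of its library after TMM scaling (a correction for library composition), and 3 reads corresponded to 0.246 to 0.444 CPM. Tests are edgeR's quasi-likelihood test with Benjamini-Hochberg adjustment over the 10728 genes that passed the filter on low counts, and a gene was called at an adjusted p under 0.05. Of the 8 genes 5 passed the filter (Thbs1, Thbs3, Fbln2, Sparc and Sparcl1); Thbs1 and Fbln2 did so through the groups in which they were read. The markers of interneurons (7 genes, among them Gad1 and Gad2) summed to 2256 to 3834 CPM in all 9 libraries, but single markers differed. Slc32a1 was at 0.908 to 8.36 CPM in Nkx2.1 libraries and at 15.2 to 77.5 CPM in the SOM and VIP libraries. Dlx6 was at 0 to 0.745 CPM and at 4.35 to 48.2 CPM, in the same order. For Dlx1 and Dlx2 the Nkx2.1 minimum (931 and 56.7 CPM) exceeded the SOM maximum (645 and 37.5 CPM). None of the 7 was called in any comparison. Sst stood at 1445 to 2163 CPM in SOM libraries and at 36.1 CPM or less elsewhere, and Vip at 410 to 799 CPM in VIP libraries and at 3.52 CPM or less elsewhere, while Lhx6, a transcription factor gene of Nkx2-1 lineage interneurons, was at 604 to 1770 CPM in the Nkx2.1 and SOM lines and at most 0.245 CPM in VIP libraries. Astrocyte markers (10 genes) summed to 2364 CPM in Nkx2.1 replicate 1 and to 38.3 to 461 CPM in the other 8 libraries. All 11 endothelial and mural markers were at 0 in 5 libraries, and their sum reached 17.6 CPM at most. Fibroblast and meningeal markers (6 genes) reached 16.6 CPM, and microglial and macrophage markers (8 genes) 17.8 CPM. Markers of excitatory neurons (7 genes) summed to 285, 3.55 and 310 CPM in the Nkx2.1 replicates, 78.8 to 183 CPM in SOM and 33.0 to 144 CPM in VIP libraries. Most of the Nkx2.1 and SOM sums was Cux2, at 169, 3.55 and 230 CPM and at 174, 130 and 77.3 CPM. Slc17a7 was at 0 in the Nkx2.1 libraries, at most 4.14 CPM in SOM and at most 36.5 CPM in VIP libraries. The RNA of a sample is a bulk of 150 cells, so that fewer cells with a transcript and less of it per cell cannot be told apart. Libraries of a group are not said to be separate animals, so the tests measure the spread between these samples only.

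Thbs1 (chromosome 2, 118111876 to 118127133, plus strand, GRCm38) was, per kb of exon, the most abundant thrombospondin in 5 of the 6 libraries of the Nkx2.1 and SOM lines. It had 3782, 4405 and 5540 reads in Nkx2.1 replicates 1 to 3, or 429, 373 and 459 CPM. The SOM replicates held 191, 1105 and 4110 reads, or 20.3, 164 and 470 CPM. In the 3 VIP libraries it had 0 reads, which allows up to 0.0999 CPM for 3 reads over the group. The Nkx2.1 libraries lay close together, the SOM libraries spread over a wide range whose top lay above every Nkx2.1 library, and no VIP library had a read. The mean was 420 ± 43.8 CPM in Nkx2.1 libraries and 218 ± 230 CPM in SOM libraries (SD, n = 3). By pooled reads these lines were at least 4202-fold and at least 2171-fold above the limit of the VIP libraries. These bounds cover counting error only. Within the VIP group 13.5% of tested genes had 0 reads in 1 library and 100 or more in another, which the bounds do not cover. Between the Nkx2.1 and SOM lines, a difference that played no part in choosing the gene, the fitted log2 change was 0.95 ± 0.94 (SE) with an edgeR adjusted p = 0.868. That change was 0.41 without SOM replicate 1 and 2.20 without SOM replicate 3, and without replicate 3 the SOM mean was 91.9 CPM. Of the 10728 genes tested 10, or 0.0932%, had no read in any VIP library and 10 or more in each Nkx2.1 library; since the gene was chosen for this pattern, nothing further is read from its place among them.

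Thbs3 (chromosome 3, 89215180 to 89226837, plus strand), a thrombospondin that forms pentamers and lacks the type 1 repeats of Thbs1 and Thbs2, was the only one of the family read in VIP libraries. It stood at 132, 20.7 and 0 CPM in Nkx2.1 replicates 1 to 3. In the SOM replicates it stood at 39.7, 29.9 and 42.1 CPM, and in the VIP replicates at 38.3, 11.6 and 0.0820 CPM, the last from 1 read. The SOM libraries were alike, whereas the other groups each held a library at or near 0, and all groups overlapped. No comparison passed the test, with log2 0.45 ± 2.18 for Nkx2.1 against SOM, 1.61 ± 2.23 for Nkx2.1 against VIP and 1.16 ± 2.20 for SOM against VIP (edgeR adjusted p = 0.993, 0.836 and 1.00). Without Nkx2.1 replicate 1 the first of these turned to -1.81 and the second to -0.64. Thbs3 overlaps Mtx1 on the opposite strand, and the strand setting of the counting is not given in the sources used here. Mtx1 had 0 reads in Nkx2.1 replicate 2, where Thbs3 had 245, and 1140 and 1029 reads in Nkx2.1 replicate 3 and VIP replicate 3, where Thbs3 had 0 and 1.

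Thbs2 (chromosome 17, 14665500 to 14694235, minus strand), the closest relative of Thbs1, was read almost only in the SOM line. It had 0, 139 and 296 reads in SOM replicates 1 to 3 (0, 20.6 and 33.8 CPM), 9 reads in Nkx2.1 replicate 1 and 0 in the other 5 libraries. The SOM replicate without a Thbs2 read was also the one with the lowest Thbs1. It did not pass the filter and was not tested. Thbs4 (chromosome 13, 92751590 to 92794818, minus strand), a pentameric relative, had 0 reads in all 9 libraries, which allows up to 0.0917, 0.120 and 0.0999 CPM in the Nkx2.1, SOM and VIP groups for 3 reads over a group. Of the 30 other protein-coding genes on the same strand within 5 Mb of Thbs4, 23 had a read. This does not show whether reads of Thbs4 itself could be counted.

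**Figure D1:**
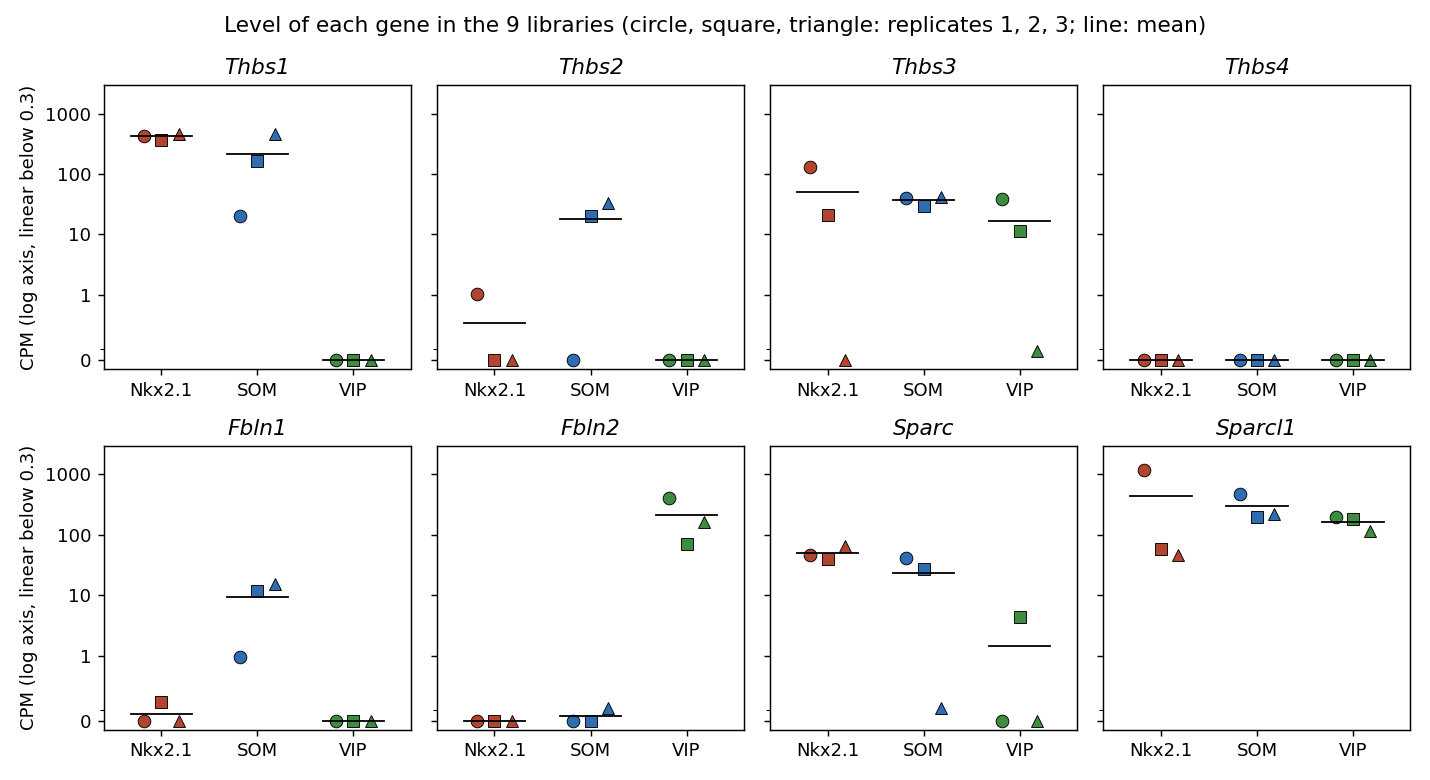
CPM of the 8 genes (log axis, linear below 0.3) in the 3 Nkx2.1, 3 SOM and 3 VIP libraries; symbols are replicates and the line is the mean. Thbs1 sits between 20.3 and 470 CPM outside the VIP libraries and at 0 within them, Fbln2 between 69.6 and 413 CPM in the VIP libraries and at or near 0 elsewhere.

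Per kb of exon, the scale on which genes can be compared, Thbs1 made up 71.98%, 93.5% and 100% of the summed level of the 4 thrombospondins in Nkx2.1 replicates 1 to 3. Its share was 28.9%, 74.7% and 85.1% in the SOM replicates and 0% in each VIP library. Thbs3 held the reverse, with 100% in every VIP library and 71.1% in SOM replicate 1. The VIP totals behind these shares were small, at most 7.94 CPM per kb for Thbs3, against 61.4 to 75.6 CPM per kb for Thbs1 alone in the Nkx2.1 libraries.

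Fbln2 (chromosome 6, 91212455 to 91272540, plus strand), a fibulin of basement membranes that binds fibronectin and proteoglycans, was read in the VIP line. It had 3366, 674 and 1997 reads in VIP replicates 1 to 3, or 413, 69.6 and 164 CPM. In the SOM replicates it had 0, 0 and 1 reads, and in the Nkx2.1 replicates 0 in each, which allows up to 0.0917 CPM over the group. All VIP libraries were far above the 6 others, and they differed among themselves several-fold. The VIP mean was 215 ± 177 CPM (SD, n = 3), at least 2191-fold above the limit of the Nkx2.1 libraries by pooled reads. Without replicate 1 the mean was 117 CPM. That bound covers counting error only. Within the Nkx2.1 group 24.0% of tested genes had 0 reads in 1 library and 100 or more in another, which the bound does not cover. Against the single SOM read the ratio of pooled reads was 5010, with a 95% exact counting interval of 899 to 197927 (counting error only). The pattern of 0 reads in all Nkx2.1 libraries and 10 or more in each VIP library was shared by 86 of the 10728 genes tested, or 0.802%.

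Fbln1 (chromosome 15, 85205949 to 85286535, plus strand), a fibulin of elastic fibres and basement membranes, was read at low levels and mostly in the SOM line. The SOM replicates held 9, 78 and 132 reads (0.955, 11.5 and 15.1 CPM), Nkx2.1 replicate 2 held 2 reads and the other 5 libraries 0. All SOM libraries lay above all others, though it did not pass the filter and was not tested. SOM replicate 1 was the lowest of its group for Thbs1, Thbs2 and Fbln1, and SOM replicate 3 the highest. Fibroblast and meningeal markers summed to 16.6, 0 and 12.3 CPM in SOM replicates 1 to 3, from reads of Col1a1 and Dcn only. The part of such cells in the levels of these genes was not tested. SOM replicate 3 was the only library with reads of both fibulins.

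The stretch around the transcription start is shown for the genes read mainly in 1 line, as the sequence next to the measured transcripts. These RefSeq windows (GRCm38.p6) hold 250 bases before and 50 after a start, 5′ to 3′ on the strand of the gene, and 6 of the 8 genes matched an entry. Capitals mark the GC box GGGCGG, the TATA box TATAAA and the CCAAT box CCAAT on either strand. Fbln2 lies at chr6:91212514-91212813, plus strand, Fbln1 at chr15:85205758-85206057, plus strand, and Thbs2 at chr17:14694213-14694512, minus strand.
Fbln2: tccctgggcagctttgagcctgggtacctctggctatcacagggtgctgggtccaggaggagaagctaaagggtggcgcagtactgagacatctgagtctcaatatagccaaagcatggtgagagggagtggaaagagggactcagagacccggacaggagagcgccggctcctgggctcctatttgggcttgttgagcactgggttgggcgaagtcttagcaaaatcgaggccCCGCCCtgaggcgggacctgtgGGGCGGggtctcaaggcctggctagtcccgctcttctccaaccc
Fbln1: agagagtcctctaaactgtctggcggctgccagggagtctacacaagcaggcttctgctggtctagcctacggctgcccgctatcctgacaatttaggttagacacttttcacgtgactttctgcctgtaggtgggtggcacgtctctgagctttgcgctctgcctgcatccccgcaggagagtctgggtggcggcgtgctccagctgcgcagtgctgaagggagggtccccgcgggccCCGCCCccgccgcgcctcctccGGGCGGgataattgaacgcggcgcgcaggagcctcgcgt
Thbs2: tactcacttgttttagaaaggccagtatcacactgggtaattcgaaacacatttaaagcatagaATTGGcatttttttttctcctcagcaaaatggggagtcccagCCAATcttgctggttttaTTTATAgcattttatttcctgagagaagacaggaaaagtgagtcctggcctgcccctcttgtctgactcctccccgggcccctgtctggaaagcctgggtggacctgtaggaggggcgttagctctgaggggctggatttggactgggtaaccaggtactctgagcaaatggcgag
The Fbln2 window held 2 GC boxes and neither of the other motifs, with 60.3% G and C. The Fbln1 window also held 2 GC boxes (64.0% G and C), whereas a second, overlapping Fbln1 entry that begins upstream at 85205699 held none of the motifs. The Thbs2 window held 1 TATA box and 2 CCAAT boxes but no GC box (48.3% G and C). Among 32851 windows of this length the GC box was found in 35.7%, the TATA box in 13.6% and the CCAAT box in 37.4%. These matches describe the letters only.

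Sparcl1 (chromosome 5, 104079111 to 104113733, minus strand) was the only one of the 8 genes read in all 9 libraries. It stood at 1200.2, 57.4 and 46.4 CPM in Nkx2.1 replicates 1 to 3. The SOM replicates stood at 478, 201 and 224 CPM and the VIP replicates at 194, 184 and 118 CPM. Every SOM library lay above every VIP library, while the Nkx2.1 line held the highest library and also the lowest pair of all 9. The group means were 435 ± 663, 301 ± 154 and 165 ± 41.3 CPM (SD, n = 3). The fitted log2 change was 0.53 ± 1.05 for Nkx2.1 against SOM, 1.40 ± 1.07 for Nkx2.1 against VIP and 0.86 ± 1.05 for SOM against VIP, and none passed the test (edgeR adjusted p = 0.972, 0.635 and 1.00). Without Nkx2.1 replicate 1 the first 2 turned to -2.51 and -1.64, with edgeR adjusted p = 0.201 and 0.267.

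Astrocytes express Sparcl1 strongly, and the library with its highest level also had the highest astrocyte marker sum, 2364 CPM. That sum rested on 9 of the 10 markers, with Slc1a3, a glutamate transporter, at 1649 CPM and Aqp4, a water channel, at 181 CPM; Gjb6 was at 0. SOM replicate 1 combined 478 CPM of Sparcl1 with 93.6 CPM of astrocyte markers, and Nkx2.1 replicate 2 had 57.4 CPM with 336 CPM. The latter sum came from 3 of the 10 markers, with Slc1a3 at 293 CPM. The part of astrocyte RNA in the level of Sparcl1 was not tested. In the SOM replicates 6, 5 and 4 of the 10 markers had a read. Those with the highest levels there were Aldh1l1 at 65.1 CPM in replicate 1, Slc1a2 at 53.0 CPM and Slc1a3 at 37.7 CPM in replicate 2, while Gfap, Gja1, Gjb6 and Fgfr3 were at 0 in all 3.

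**Figure D2:**
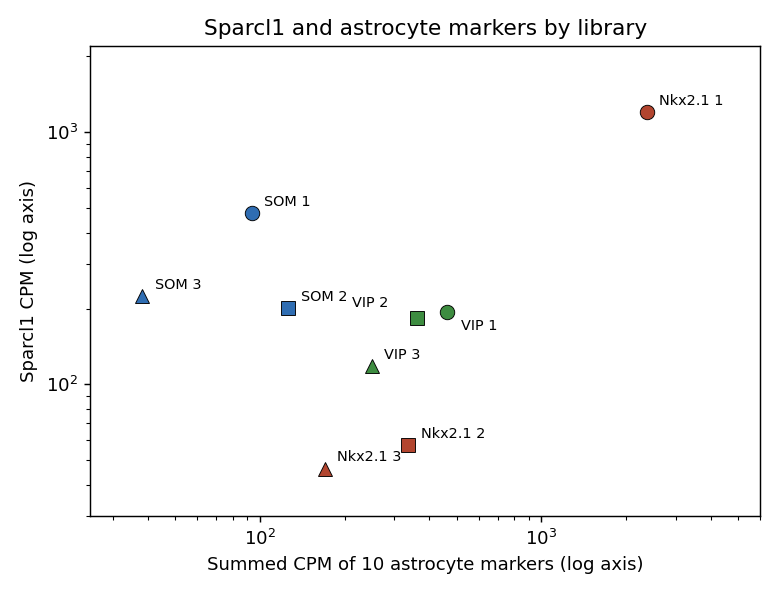
Sparcl1 CPM against the summed CPM of 10 astrocyte markers, both on log axes, 1 point per library (colour: line, symbol: replicate). Nkx2.1 replicate 1 stands alone at 2364 and 1200.2 CPM, and the SOM libraries hold 201 to 478 CPM of Sparcl1 at the lowest marker sums.

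Sparc (chromosome 11, 55394500 to 55423183, minus strand) was read in the Nkx2.1 and SOM lines and hardly in the VIP line. It stood at 45.8, 40.4 and 64.4 CPM in the Nkx2.1 replicates. The SOM replicates stood at 42.0, 26.8 and 0.114 CPM, the last from 1 read, and the VIP replicates at 0, 4.34 and 0 CPM. The Nkx2.1 libraries lay above every VIP library and were close to each other, and the SOM libraries split into a pair like Nkx2.1 and a library with almost none. The mean was 50.2 ± 12.6 CPM in Nkx2.1, 23.0 ± 21.2 in SOM and 1.45 ± 2.504 in VIP libraries (SD, n = 3). Although the Nkx2.1 mean was 34.7-fold above the VIP mean, the difference did not pass the test (log2 5.11 ± 2.66, edgeR adjusted p = 0.411), nor did SOM against VIP (3.98 ± 2.52, edgeR adjusted p = 1.00) or Nkx2.1 against SOM (1.13 ± 2.26, edgeR adjusted p = 0.972). The VIP mean rests on replicate 2 alone. Without it no VIP read is left and the fitted values, 11.96 for Nkx2.1 and 10.79 for SOM against VIP, are no measure of a fold. Nkx2.1 against SOM was 1.90 without SOM replicate 1 and 0.55 without SOM replicate 3. Endothelial cells are a strong source of Sparc. Their 11 markers, with mural cells, summed to 0.114, 0 and 0 CPM in the Nkx2.1 replicates, 0, 17.6 and 0.114 CPM in the SOM replicates and 0, 0 and 0.0820 CPM in the VIP replicates. Cldn5, Cdh5 and Kdr had no read in any library. Markers of the oligodendrocyte lineage (8 genes) summed to 293, 259 and 302 CPM in the Nkx2.1 replicates. They summed to 99.97, 264 and 189 CPM in the SOM and 1.72, 111 and 46.4 CPM in the VIP replicates. Different markers led the Nkx2.1 sums: Cspg4 in replicate 1 (192 CPM), Pdgfra in replicate 2 (258 CPM) and Mbp in replicate 3 (137 CPM). The part of either cell type in the level of Sparc was not tested. SOM replicate 3, with 1 read of Sparc, held 189 CPM of these markers.

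Per kb of exon Sparcl1 exceeded Sparc in all libraries but Nkx2.1 replicate 3, where it made up 48.1% of the pair. Its share was 97.1% and 64.7% in Nkx2.1 replicates 1 and 2 and 90.6% to 100% in the SOM and VIP libraries. Over the 8 genes the order of the mean level per kb was Sparcl1 (148 ± 226), Thbs1 (69.2 ± 7.21), Sparc (13.3 ± 3.33) and Thbs3 (10.6 ± 14.7) in Nkx2.1 libraries, with the others under 0.1 CPM per kb. In SOM libraries it was Sparcl1 (102 ± 52.3), Thbs1 (35.9 ± 37.8), Thbs3 (7.72 ± 1.34), Sparc (6.07 ± 5.60), Thbs2 (2.59 ± 2.43) and Fbln1 (2.11 ± 1.68). In VIP libraries it was Sparcl1 (56.3 ± 14.0), Fbln2 (33.8 ± 27.8), Thbs3 (3.45 ± 4.06) and Sparc (0.382 ± 0.661). Neighbours in these orders overlapped within their SD except Thbs1 over Sparc in Nkx2.1 libraries.

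**Figure D3:**
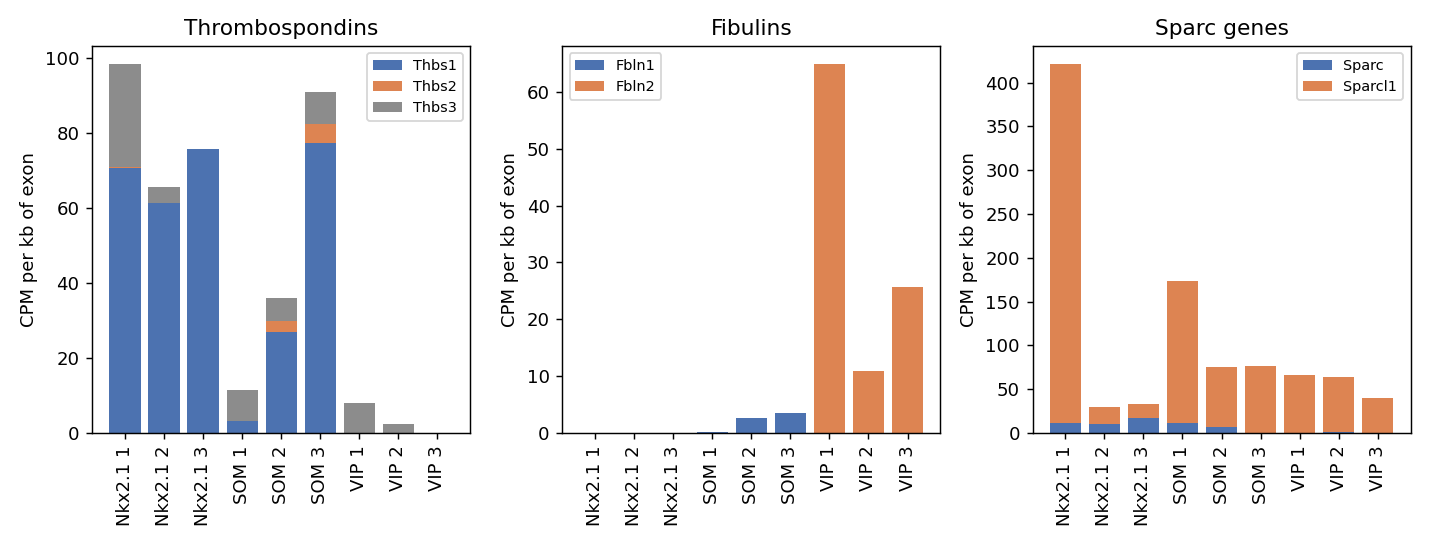
Stacked levels in CPM per kb of exon for the thrombospondins, the 2 fibulins and the Sparc genes in each of the 9 libraries. Thbs1 fills most of the Nkx2.1 bars, Fbln2 the VIP bars, and Sparcl1 most of the third panel's bars, least in Nkx2.1 replicates 2 (64.7%) and 3 (48.1%).

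Counted by comparison, Nkx2.1 against SOM had 0 of the 5 tested genes called, where edgeR called 0.0932% of all tested genes. At an unadjusted p under 0.05 there were also 0 of 5, beside 11.3% of all genes, and DESeq2 called 0 of the 4 to which it gave an adjusted p (not Sparcl1), beside 7.73%. All 5 overlapped between these groups, whereas 19.9% of all tested genes did not. In Nkx2.1 against VIP 2 of 5 were called, Thbs1 and Fbln2, beside 0.308% of all genes, and 3 did not overlap (those and Sparc), beside 20.1%. In SOM against VIP Thbs1 alone was called, beside 0.0746%, and Thbs1, Fbln2 and Sparcl1 did not overlap, beside 19.9%. Because Thbs1 and Fbln2 were chosen on these contrasts, their calls add nothing to the description above. None of Thbs3, Sparc and Sparcl1 was called in any comparison. Fbln2 lost its call in Nkx2.1 against VIP without any 1 of the 9 libraries, and Thbs1 lost it without VIP replicate 1 or 3. In SOM against VIP the call of Thbs1 was kept only without SOM replicate 1. Levels that switch between libraries of a line, like those of Thbs3, were frequent here: 24.0%, 7.98% and 13.5% of the tested genes had a library with 0 reads and another with 100 or more within the Nkx2.1, SOM and VIP groups.

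**Figure D4:**
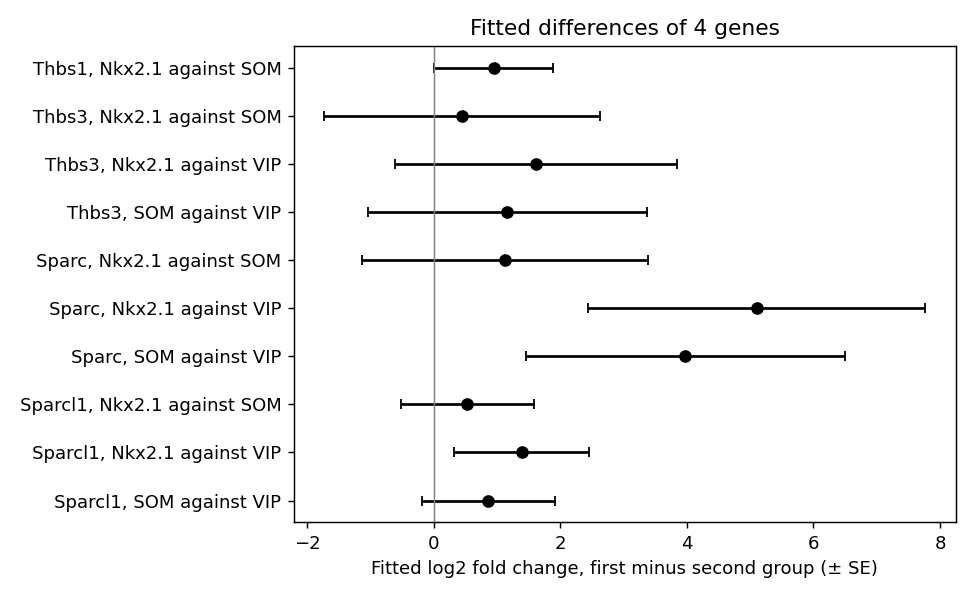
Fitted log2 fold changes with their SE for the 10 differences of Thbs1, Thbs3, Sparc and Sparcl1 that did not enter the choice of the genes. The SE is over 2 for every Thbs3 and Sparc difference and about 1 for Thbs1 and Sparcl1; the largest value is 5.11 for Sparc in Nkx2.1 against VIP.

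The other genes of these families and their partners came from 6 lists with 53 genes, of which 34 were tested. In each of the 3 comparisons edgeR called 0 of the 34 (lowest adjusted p = 0.279, 0.141 and 0.327). At an unadjusted p under 0.05 there were 5, 8 and 7 of 34, in the order Nkx2.1 against SOM, then Nkx2.1 against VIP, then SOM against VIP, beside 11.3%, 15.2% and 6.99% of all tested genes. DESeq2 called 6, 7 and 3 of 34, beside 7.73%, 12.7% and 3.84% of the 9941 genes to which it gave an adjusted p. The list medians below are fitted log2 changes, and the median over all tested genes was -0.0075, 0.0028 and -0.0037.

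Of the remaining fibulins and the fifth thrombospondin, 1 of 6 genes was tested. Comp, Fbln5 and Efemp1 had no read in any library, and Hmcn1 and Fbln7 were too low to test. Efemp2, an elastic fibre fibulin, stood at 0, 0 and 115 CPM in the Nkx2.1 replicates, 1.59, 0 and 10.4 CPM in the SOM replicates and 0, 24.6 and 9.67 CPM in the VIP replicates. The 1 Nkx2.1 library with reads stood above all others.

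Other Sparc family genes were more abundant, led by the testicans, proteoglycans of the matrix that carry a Sparc-like calcium-binding domain. Spock3 stood at 390, 423 and 279 CPM in the Nkx2.1, 533, 574 and 569 CPM in the SOM and 218, 63.3 and 126 CPM in the VIP replicates, so that the 3 lines did not overlap at all (edgeR adjusted p = 0.781, 0.233 and 0.327 in the 3 comparisons, in the order above). Spock1 was at 28.6 to 221 CPM in Nkx2.1, 80.6 to 103 CPM in SOM and 0.930 to 25.1 CPM in VIP libraries. Spock2 was lowest in the Nkx2.1 line, at 28.3 to 75.5 CPM against 93.3 to 203 CPM in the other 6 libraries. Smoc1, a secreted Sparc relative of basement membranes named after its values were seen, was at 41.7, 50.5 and 59.4 CPM in the VIP replicates and at 0 to 1.04 CPM in the other 6 libraries (edgeR adjusted p = 0.187 for Nkx2.1 against VIP and 0.465 for SOM against VIP). Libraries did not overlap for 2, 4 and 3 of the 5 tested genes of the list in the 3 comparisons, beside 19.9%, 20.1% and 19.9% of all tested genes. The list medians were -0.62, -1.33 and 0.52.

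Of the thrombospondin receptors 10 of 13 were tested, and Cd36, a scavenger receptor, had no read. The most abundant per kb were Calr, Itgb1 and Cd47. Calr, a chaperone that also binds thrombospondin at the cell surface, was at 101 to 518 CPM in Nkx2.1, 237 to 337 CPM in SOM and 188 to 277 CPM in VIP libraries. Cd47, which encodes the receptor of the thrombospondin C terminus, was highest in the line without Thbs1, at 479, 222 and 290 CPM in the VIP replicates against 22.8 to 143 CPM in the other 6 libraries (edgeR adjusted p = 0.223 for Nkx2.1 against VIP and 0.862 for SOM against VIP). Itgb1, the integrin beta-1 chain, was at 145 to 344 CPM in Nkx2.1, 81.2 to 91.6 CPM in SOM and 46.3 to 152 CPM in VIP libraries. Cacna2d1, the synaptic thrombospondin receptor, named after its values were seen, was at 101, 122 and 0.166 CPM in the Nkx2.1 replicates, 0.637, 0 and 0.229 CPM in the SOM replicates and 24.5, 7.33 and 188 CPM in the VIP replicates. The SOM libraries, which held Thbs1, thus had at most 6 reads of Cacna2d1 each (edgeR adjusted p = 0.328 for Nkx2.1 against SOM and 0.462 for SOM against VIP). The list medians were 0.58, 0.35 and -0.27. Libraries did not overlap for 3, 2 and 3 of the 10 tested, beside 19.9%, 20.1% and 19.9% of all tested genes.

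The neurexins and neuroligins that Sparcl1 links were all 6 tested. Nrxn3 stood at 1727 ± 335, 1668 ± 360 and 1188 ± 503 CPM and Nlgn3 at 173 ± 66.1, 289 ± 60.9 and 182 ± 42.5 CPM (SD, n = 3), each in the order Nkx2.1, SOM, VIP. Their medians were 0.24, -0.18 and -0.28. The counts without overlap were 1, 0 and 1 of 6, beside 19.9%, 20.1% and 19.9% of all tested genes. Among 14 matrix partners 9 were tested, and the proteoglycan gene Ncan led with 219 ± 97.7, 255 ± 76.0 and 340 ± 85.9 CPM. Bcan, another brain proteoglycan that astrocytes also make, was at 12.9 to 181 CPM in Nkx2.1 and 0 to 4.88 CPM in SOM libraries, highest in Nkx2.1 replicate 1. In the VIP replicates Bcan stood at 37.3, 0.103 and 17.1 CPM, which overlaps both other lines. Col4a2, a collagen chain of basement membranes, stood at 0, 0 and 15.9 CPM in the Nkx2.1 replicates, 129, 5.48 and 50.1 CPM in the SOM replicates and 62.9, 106 and 55.7 CPM in the VIP replicates. Fn1, encoding fibronectin and named after its values were seen, had at most 9 reads in a library. The matrix medians were 0.86, 0.37 and -0.28. Libraries did not overlap for 2, 3 and 2 of the 9 tested, beside the same shares of all tested genes.

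Transforming growth factor beta genes had 4 of 8 members tested, and both tested ligands were read mainly in the Nkx2.1 line. Tgfb2 stood at 88.0, 168 and 27.6 CPM in the Nkx2.1 replicates and at 0 to 0.164 CPM in the other 6 libraries (edgeR adjusted p = 0.279 against SOM and 0.141 against VIP). Tgfb3 stood at 299.6, 0.0846 and 296 CPM in the Nkx2.1 replicates, 0 to 4.14 CPM in the SOM libraries and 0 in the VIP libraries (edgeR adjusted p = 0.410 and 0.182). The receptor gene Tgfbr1 stood in the Nkx2.1 replicates at 1.02, 0 and 45.7 CPM against 77.6 to 185 CPM in SOM libraries (edgeR adjusted p = 0.664), and Tgfbr2 had no read in any library. In the VIP replicates Tgfbr1 stood at 71.8, 22.3 and 45.1 CPM, which overlaps the Nkx2.1 line. The list medians were 2.66, 4.87 and 1.28. Libraries did not overlap for 2, 2 and 1 of the 4 tested, beside 19.9%, 20.1% and 19.9% of all tested genes.

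**Figure D5:**
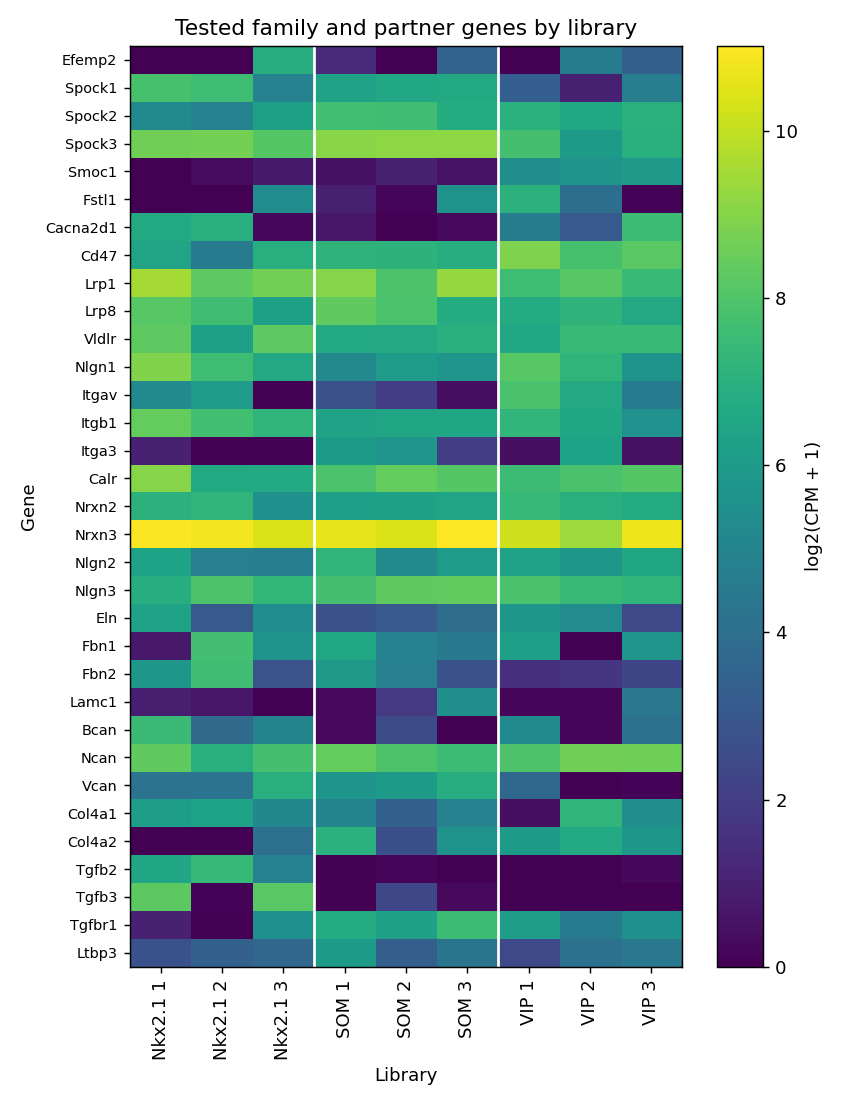
log2(CPM + 1) of 33 tested family and partner genes (rows) in the 9 libraries (columns, lines between the groups). Nrxn3 is bright in every column, Tgfb2 is dark outside the Nkx2.1 columns and Smoc1 outside the VIP columns.

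The genes most like each tested gene across the 9 libraries were taken as those with the smallest root mean square difference of log2(CPM + 1) after centring each gene, a description that carries the groups and the shared libraries with it. For Thbs1 these were Nxph2 (0.82), Cntnap3 (1.07) and Drp2 (1.09). Nxph2, which encodes a secreted ligand of neurexins, stood at 202, 184 and 338 CPM in the Nkx2.1 replicates, 45.6, 68.5 and 142 CPM in the SOM replicates and 0 in the VIP libraries, with SOM replicates 1 and 3 lowest and highest as for Thbs1. For Fbln2 they were Sall1 (0.33), Sardh (0.77) and Prox1 (0.96), of which Sall1 and Prox1 encode transcription factors. Sall1 stood at 342, 134 and 206 CPM in the VIP replicates, the same order of libraries as Fbln2, and at 0 to 0.457 CPM elsewhere. For Sparc they were Mbnl2 (0.80), Ftx (0.90) and Sp9 (1.11), and for Thbs3 1810043G02Rik (0.57), Pcyt1a (0.77) and Rint1 (0.81). For Sparcl1 they were Serinc4 (0.52), Gpi1 (0.52) and Serf2 (0.60). Serinc4 and Serf2 overlap each other, Pcyt1a overlaps Slc51a and Sp9 overlaps Cir1, so the reads of these genes may not be separable.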

How the data were processed

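Per the labels, total RNA was taken from hand-picked fluorescent cells and sequenced on the Illumina platform, 3 libraries for each of the Nkx2.1, SOM and VIP lines. What the authors deposited for each library is a table of raw counts by gene symbol. The submitters' processing notes name TopHat2 2.0.9, DESeq2 and mm10 without a role. Not given in the sources used here: the counter, strandedness and annotation. The 5 summary entries below the 23319 gene symbols, 83.6% to 85.2% of each table, were left out.

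edgeR 4.0.16 (R 4.3.3) was run on the counts as deposited: TMM, filterByExpr by group with a minimum count of 10, 1 quasi-likelihood fit over 9 libraries with group as the only term, 6 residual degrees of freedom, and 1.40 as the common biological coefficient of variation. SE values were taken back from the F statistic. The script was tested on simulated data. DESeq2 1.42.0 was an alternative, as were other size factors, no filter, fits of 2 groups, a replicate block and leaving out each library. Positions and exon lengths came from GENCODE M21 (GRCm38), matched by symbol. Folds against a group without reads are lower bounds set by 3 reads over the group, and these and the intervals (95%) cover counting error only. The members and lists were chosen with earlier results of these data known. Text names all 8 genes, the 3 most abundant genes per kb of each list, every called list gene, and the 3 nearest profiles of each tested gene; 1 gene that this rule names is not reported here.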

Additional observations from a re-analysis of the deposited data

How the results depend on the processing

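Of the 10 fitted differences of Thbs1, Thbs3, Sparc and Sparcl1, each under 14 alternatives, 134 of 140 values kept their direction and none passed the threshold. DESeq2 gave no adjusted p for Sparcl1. The 6 that turned were Nkx2.1 against SOM without Nkx2.1 replicate 1 (Thbs3 -1.81, Sparcl1 -2.51) and with the replicate block (-3.33 and -0.60), and Nkx2.1 against VIP without Nkx2.1 replicate 1 (-0.64 and -1.64); the cause was not tested. Without 1 library these spanned -1.81 to 1.04 (Thbs3) and -2.51 to 1.07 (Sparcl1) against SOM, and -0.64 to 3.22 and -1.64 to 1.93 against VIP. Among means above 1 CPM, leaving out 1 library moved the following by over 1.5 times. In Nkx2.1 libraries they were Sparcl1 (435 to 51.9) and Thbs3 (50.9 to 10.4), both without replicate 1. In SOM libraries they were Thbs1 (218 to 91.9) and Thbs2 (18.1 to 10.3) without replicate 3 and Sparc (23.0 to 13.5) without replicate 1. In VIP libraries they were Thbs3 (16.6 to 5.82) and Fbln2 (215 to 117) without replicate 1 and Sparc (1.45 to 0) without replicate 2.

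Genes called numbered 10 in Nkx2.1 against SOM, 33 in Nkx2.1 against VIP, and 8 in SOM against VIP. They were 768, 1262 and 382 with DESeq2, 5, 20 and 32 with only the 2 groups compared, and 4, 11 and 4 with the replicate block. Without a filter SOM against VIP had 21. Leaving out 1 library gave 0 to 37, 12 to 48 and 3 to 17. Of the 8 genes, Nkx2.1 against VIP had 1 called (Thbs1) with only the 2 groups compared, 0 with the replicate block and 0 to 1 without 1 library; SOM against VIP had 1 called (Thbs1), which was Fbln2 instead with only the 2 groups compared, 2 with DESeq2 (Thbs1 and Fbln2), 0 with the replicate block and 0 to 1 without 1 library. The labels do not say that the numbers pair samples, so the main fit has no replicate block. Deviations of same-numbered libraries correlated at -0.03 to 0.06 across genes. Differently numbered libraries were not set beside them, so these values cannot exclude a pairing. The rarest genes rest on few reads, 435 for Thbs2 and 219 for Fbln1 in the SOM libraries. Thbs2 had 0 reads in SOM replicate 1 (9184008 reads in genes) and 139 in SOM replicate 2 (6484488). The part of depth in the zeros of these genes was not tested.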
